A study of Saccharomyces cerevisiae with 4 samples.

Results

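The mtr4-1 mutant of budding yeast (Saccharomyces cerevisiae) was set against wild type (WT) across the mitotic and microtubule genes that the study tabulated. The mtr4-1 library came from strain T188 and the WT library from strain BJ2664. Both strains were cultured in YPD, a rich broth, at 30 °C until OD600 reached 0.4, and both then spent 2 h at 37 °C, so the warm shift is common to them. Poly(A)-selected RNA was sequenced with 1 library per genotype. The series also holds mtr3-1 (strain T208) and dis3mtr (strain T186) libraries grown in the same way, and their values are given below only beside those of mtr4-1. Members were all ORFs listed with values in the 16 term tables, 133 of 144 listed identifiers. They formed 130 distinct sets of values, because 3 identifiers repeated the values of another, and each set was counted once.

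MTR4 encodes an RNA helicase of the nucleus that unwinds RNA and hands it to the exosome, the complex that trims and degrades RNA from its 3′ end. With a poly(A) polymerase and a zinc-knuckle protein it forms the TRAMP complex, which adds short tails to faulty or short-lived nuclear RNA. Mtr4 is best known in yeast for the maturation of ribosomal RNA and the removal of cryptic transcripts. The MTR4 transcript and those of other TRAMP and exosome genes are not analysed here, so the genotype could not be checked from the values. The series title names microtubule defects of a DIS3 mutant as its subject, and the listed genes act in tubulin folding, the spindle, its checkpoints, mitotic exit and budding.

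Each value is the authors' normalized value for a gene in a library, in units whose definition the sources used here do not give. Values were therefore compared between libraries of the same gene. Without replicates no difference could be set against a spread between cultures, and the depth behind the values is unknown. Each genotype was a different strain, so strain background and the mtr4-1 allele cannot be told apart. The authors set 115% of WT as the lower bound of an increase and 85% as the upper bound of a decrease, and "high" and "low" below refer to these limits without a test. An uncertain identity applied to 9 of the 130 features, since the ORF had no entry in the R64 annotation, the listed position belonged to another gene, or 2 ORFs carried identical values. They are YFR036W-A, YDR118W-A, CBF2, CEP3, DMA2, GIN4, BNI5, SKP1 and GLC7, and are marked as such where they appear. The position check compared kb positions and did not require the same chromosome number. ARP1, CLB4 and RSC4, listed on chromosomes 3, 7 and 9, differ from R64 in that number and were kept as certain. The check asked only whether the listed span came within 1 kb of the gene, not whether it held that gene alone. BFA1, for example, is listed over 533 to 538 kb of chromosome 10 and BUB3 over 379 to 384 kb of chromosome 15. Whether such values cover more than the named gene is unknown, also where the identity is called certain.

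Most listed transcripts were lower in mtr4-1 than in WT. Of the 130 features, 75 (57.7%) were low, 36 lay between the limits and 19 (14.6%) were high. The median feature stood at 81.5% of WT, a log2 ratio of -0.30, and the lower and upper quartiles were 66.3% and 101%. At a 1.5-fold limit 34 features (26.2%) were low and 10 (7.69%) high. A scale factor of the whole mtr4-1 library would move every ratio alike, so each ratio was also divided by the median ratio. The split was then 44 low (33.8%), 43 inside and 43 high (33.1%), which is near balance by construction. All 19 high features were still high after the division and 44 of the 75 low ones were still low. The excess of low over high features was thus seen as deposited and not after the division, while the order of the genes is the same on both scales. In bulk cultures, a different share of cells at some stage of the cycle and a different amount of RNA per cell cannot be told apart.

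**Figure D1:**
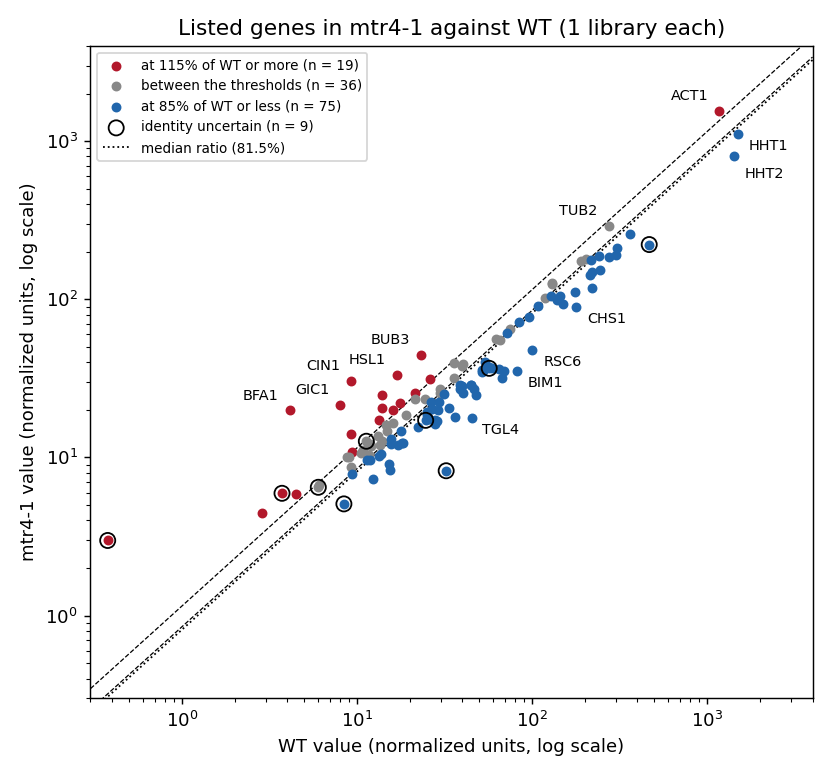
Value of each of the 130 features in mtr4-1 (vertical axis) against WT (horizontal axis), both in normalized units on log scales, 1 library each. Dashed lines mark 115% and 85% of WT and the dotted line the median ratio of 81.5%; the 75 blue points are low, the 19 red points high, and rings mark the 9 features of uncertain identity.

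The highest certain ratio belonged to BFA1, which with BUB2 encodes the inhibitor of the mitotic exit GTPase Tem1. BFA1 (listed at chromosome 10, 533 to 538 kb, on the authors' build sacCer2) had 19.8 units in mtr4-1, against 4.13 in WT, or 480.3% of WT. CIN1 (chromosome 15, 989 to 992 kb), a cofactor that folds β-tubulin and joins it to α-tubulin, had 30.4 units in mtr4-1, against 9.23 in WT (329%). GIC1 (chromosome 8, 221 to 222 kb), an effector of the polarity GTPase Cdc42, had 21.5 units in mtr4-1, against 8.02 in WT (268%). In all 3 the mtr4-1 value was more than 2 times the WT value, which no other gene of certain identity reached. Next came HSL1, a kinase at the septin ring, with 33.4 units in mtr4-1, against 16.8 in WT, and the spindle assembly checkpoint gene BUB3, with 44.4 units in mtr4-1, against 23.2 in WT. BUB2 had 24.9 units in mtr4-1, against 13.8 in WT, and BUB1, a checkpoint kinase, had 4.45 units in mtr4-1, against 2.85 in WT. BUB3, BUB2 and BUB1 stood at 192%, 180.2% and 156%. CIK1, the partner of the kinesin Kar3, had 14.1 units in mtr4-1, against 9.28 in WT, and DOC1, a subunit of the anaphase-promoting complex that helps to bind substrates, had 20.5 units in mtr4-1, against 13.9 in WT. ACT1, the actin gene, was the high feature with the largest values, 1554 units in mtr4-1, against 1169 in WT (133%).

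LTE1, a promoter of mitotic exit, SPC105, an outer kinetochore subunit, and KIN4, a kinase that delays mitotic exit when the spindle is misplaced, completed the 15 highest with YFR036W-A and CBF2. LTE1 had 5.87 units in mtr4-1, against 4.48 in WT (131%). SPC105 stood at 129%, and KIN4 had 22.04 units in mtr4-1, against 17.6 in WT (125%). YFR036W-A, listed under the name CDC26, had 2.98 units in mtr4-1, against 0.376 in WT and CBF2 had 5.93 units in mtr4-1, against 3.73 in WT, both of uncertain identity. High ratios went with small WT values. Of the 15 highest, 14 had a WT value under the median of 29.2 units over all 130, against 1 of the 15 lowest. With the features ranked by WT value and split into 4 bins, from low to high WT value, 11 of 33, 7 of 33, 0 of 32 and 1 of 32 were high, the last being ACT1, and the median ratios were 103%, 77.3%, 66.9% and 71.9%. The WT value is also the denominator of the ratio, and the sources used here do not say whether values are per gene length. What this pattern comes from was not tested.

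**Figure D2:**
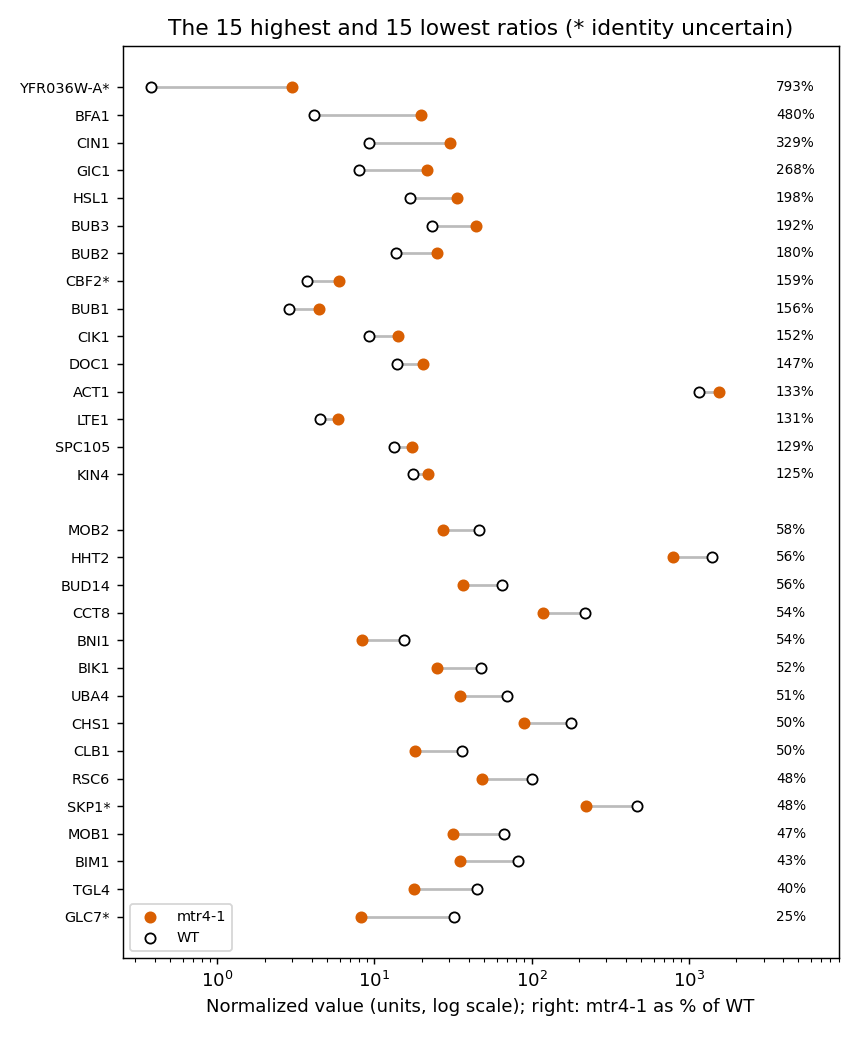
Normalized values (log scale) of the 15 features with the highest and the 15 with the lowest mtr4-1/WT ratio, filled points for mtr4-1 and open points for WT, with the percent of WT at the right. Except for ACT1, the high group sits at WT values of 23.2 units or less, and stars mark uncertain identity.

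At the other end stood TGL4 (chromosome 11, 605 to 608 kb), which encodes a triacylglycerol lipase of lipid droplets. It had 17.8 units in mtr4-1, against 45.1 in WT, or 39.5% of WT. BIM1 (chromosome 5, 187 to 192 kb), the plus-end protein related to EB1, had 35.2 units in mtr4-1, against 81.8 in WT (43.1%), and MOB1 (chromosome 9, 166 to 167 kb), which activates the mitotic exit kinase Dbf2, had 31.8 units in mtr4-1, against 67.2 in WT (47.4%). These 3 had the lowest ratios of certain identity, and stayed low after division by the median, at 48.5%, 52.8% and 58.2%. RSC6, a subunit of the RSC chromatin remodeler, had 48.1 units in mtr4-1, against 101 in WT, and the cyclin CLB1 had 18.04 units in mtr4-1, against 36.2 in WT. CHS1, a chitin synthase that repairs the septum, had 89.7 units in mtr4-1, against 179 in WT, and UBA4, the activating enzyme of the modifier Urm1, had 35.2 units in mtr4-1, against 69.4 in WT. BIK1, another plus-end protein, had 24.97 units in mtr4-1, against 47.7 in WT, and BNI1, a formin that builds actin cables, had 8.31 units in mtr4-1, against 15.5 in WT. CCT8 of the chaperonin ring, BUD14, a regulator of formins, HHT2, a histone H3 gene, and MOB2, which activates the kinase Cbk1, completed the certain part of the 15 lowest at 53.7%, 55.99%, 56.5% and 58.4%. GLC7, with 8.24 units in mtr4-1, against 32.3 in WT, and SKP1, with 222 units in mtr4-1, against 467 in WT, have uncertain identities, and GLC7 had the lowest ratio of all at 25.5%.

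Of the 3 measured tubulin genes 2 were inside the limits as deposited and 1 was low, beside 57.7% low over all features. TUB2, the β-tubulin gene, had 292 units in mtr4-1, against 274 in WT (106%), and TUB1, the major α-tubulin gene, had 126 units in mtr4-1, against 129.6 in WT (97.3%). TUB3, the minor α-tubulin gene, had 98.3 units in mtr4-1, against 139.6 in WT (70.4%) and was the low member. After division by the median TUB2 and TUB1 were high at 131% and 119%, beside 33.1% high over all features. TUB3 then lay inside the limits at 86.5%. Among the tubulin-folding cofactors, CIN1 was high, and PAC2, which acts on α-tubulin, and RBL2, which binds β-tubulin, were low at 81.9% and 72.9%. After division CIN1 was still high at 404%, and PAC2 and RBL2 lay inside the limits at 100.5% and 89.5%.

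The chaperones that act before those cofactors had no high member as deposited or after division, beside 14.6% and 33.1% of all features. All their measured genes fell in the highest of the 4 bins of WT value, where 1 of 32 features was high as deposited. Prefoldin carries newly made tubulin and actin to the chaperonin, and 5 of its 6 genes were measured. PAC10 had 93.7 units in mtr4-1, against 149.6 in WT, YKE2 had 142 units in mtr4-1, against 215 in WT and GIM5 had 105 units in mtr4-1, against 128 in WT, which made these 3 low, at 62.6%, 66.1% and 81.8%. GIM3 and GIM4 were inside the limits at 88.5% and 92.9%. The median of the 5 was 81.8%, level with the 81.5% of all features, and after division it was 100.4%. The CCT chaperonin, the ring in which tubulin and actin fold, had all of its 7 measured subunit genes low, beside 57.7% of all features. Their percents were 53.7% for CCT8, 62.5% for CCT3, 62.7% for CCT2, 63.04% for CCT7, 67.3% for CCT6, 77.2% for CCT4 and 81.1% for CCT5. CCT3, for example, had 189.6 units in mtr4-1, against 303 in WT and CCT8 had 118 units in mtr4-1, against 219 in WT. The median was 63.0%, against 81.5% over all features. In the highest bin of WT value, which holds all 7, the median was 71.9% and 24 of 32 features were low as deposited. After division the CCT median was 77.4% with 5 of 7 still low, beside 33.8% of all features. The CCT genes were put together as a group after their values had been seen.

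Among kinesins, plus-end and midzone proteins, 5 of 13 genes on the list were measured, and they spread widely. CIK1 was high, ASE1, which bundles microtubules of the midzone, lay just under the limit at 114.9%, and the depolymerizing kinesin KIP3 had 16.6 units in mtr4-1, against 16.03 in WT (103%). BIK1 and BIM1, which bind each other and ride on growing ends, were low. The list median was 103%, and after division (127%) no member was inside the limits, with CIK1, ASE1 and KIP3 high and BIK1 and BIM1 low. In the dynein and dynactin list, ARP1, which forms the dynactin filament, had 19.9 units in mtr4-1, against 15.99 in WT and was high at 125%. SHE1, a dynein inhibitor, JNM1, another dynactin subunit, and the dynein heavy chain gene DYN1 were inside at 101%, 95.4% and 88.9%. LDB18, also of dynactin, had 71.6 units in mtr4-1, against 84.3 in WT and lay just past the lower limit at 84.97%. The list median was 95.4%, and 117% after division.

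All 6 genes on the spindle assembly checkpoint list were measured, with 2 high as deposited and after division, beside 14.6% and 33.1% of all features. BUB3 and BUB1 were high, MAD1 and the kinase gene MPS1 were inside at 91.2% and 87.6%, and MAD3 and MAD2 were low. MAD3 had 12.1 units in mtr4-1, against 15.7 in WT, and MAD2, whose product binds Cdc20, had 28.5 units in mtr4-1, against 44.6 in WT (63.9%). The list median was 89.4% (109.7% after division), and its members spanned 63.9% for MAD2 to 192% for BUB3. The spindle position checkpoint, which holds back mitotic exit until a spindle pole enters the bud, had 8 of 9 genes measured, counting the uncertain DMA2. Of these 4 were high as deposited and 5 after division, with DMA2 at 132% making up the 5. The DMA2 values are identical to those of CTF13, and DMA2 is also listed without values. BFA1, BUB2, LTE1 and KIN4 were high, and LTE1 works in the opposite sense to the other 3. DMA1, a ubiquitin ligase, was at 85.1%, just inside, SPC72, the outer-plaque protein of the spindle pole body, was low with 9.69 units in mtr4-1, against 11.8 in WT, and RTS1, a regulatory subunit of the phosphatase PP2A, was low with 37.2 units in mtr4-1, against 56.9 in WT. The list median was 116% over all 8 features, and 125% over 7 without the uncertain DMA2. Of the 8, the 6 with at least 5 units in WT, which leaves out BFA1 and LTE1, had a median of 96.4%.

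Of 19 kinetochore and inner centromere genes on the list, 4 features had values and 3 of these, CBF2, CEP3 and DMA2 (same values as CTF13), have uncertain identities. The certain one, BIR1, a survivin-like protein of the inner centromere, was low with 7.29 units in mtr4-1, against 12.4 in WT (59.0%). SPC105, outside that list, was high with 17.3 units in mtr4-1, against 13.4 in WT. SCM3, the chaperone of the centromeric histone, was low at 77.3%, and SGO1, a sensor of tension at centromeres, was inside at 94.6%.

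Of 13 genes on the list of mitotic exit itself 5 were measured. None was high and 3 were low, a share of low genes near the 57.7% of all features, and the median was 69.1%. After division 2 were high and 3 low, with a median of 84.8%. MOB1 has been given above. CDC14, the phosphatase that drives exit, had 25.7 units in mtr4-1, against 40.4 in WT (63.5%), and NET1, which holds Cdc14 in the nucleolus, had 26.9 units in mtr4-1, against 38.99 in WT (69.1%). CDC15, a kinase above Mob1 and Dbf2, and ESP1, the protease separase, were inside at 103% and 111% and were high after division. The inhibitors BFA1 and BUB2 stood on the opposite side of WT from MOB1 and CDC14, as deposited and after division. Other exit genes did not all follow this split by role. NET1, which restrains Cdc14, was low, LTE1, a promoter of exit, was high at 131%, and CDC15 and ESP1 were above WT. In the related RAM kinase network, MOB2 had 27.2 units in mtr4-1, against 46.5 in WT, and CBK1, the kinase it activates, had 28.6 units in mtr4-1, against 38.9 in WT (73.4%), both low. TAO3, a scaffold of that network, was inside the limits with 18.5 units in mtr4-1, against 19.05 in WT (97.2%).

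The anaphase-promoting complex, the ubiquitin ligase that starts anaphase, was covered by 15 of 16 listed genes, of which 1 was high, 9 were low and 5 were inside, close to the 14.6% high and 57.7% low of all features. DOC1 was the high gene. CDC16, CDC27 and CDC26 of the TPR arm stood at 108%, 98.5% and 89.8%, while CDC23 of the same arm had 12.02 units in mtr4-1, against 17.2 in WT and was low at 69.7%. Of the platform and catalytic subunits, APC4 and APC2 were inside at 109.6% and 103%. APC1 and APC11 were just past the lower limit at 83.7% and 84.4%, and APC5 was further down with 9.11 units in mtr4-1, against 15.2 in WT (60.0%). The small subunits APC9, SWM1 and MND2 were low at 68.7%, 62.6% and 58.8%. Both activators were low, CDC20 with 13.1 units in mtr4-1, against 15.6 in WT and CDH1 with 17.03 units in mtr4-1, against 28.7 in WT, at 83.96% and 59.3%. The list median was 84.0%, beside 81.5% for all features. After division it was 103%, with 5 genes high, 5 low and 5 inside.

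Of 11 B-type cyclin and Cdk regulator genes 6 were measured, with none high and 4 low, beside 57.7% low over all features, and a median of 81.9%. After division the median was 100.6%, with CLB2 and CLB4 high and CLB1 low. CLB2 and CLB4 lay at 103% and 101%, MIH1, the phosphatase that activates Cdc28, at 84.2%, CLB3 at 79.7% and the S-phase cyclin CLB5 at 75.9%. CLB1 was the lowest at 49.9%. CLB2 had 12.2 units in mtr4-1, against 11.9 in WT, so the close relatives CLB1 and CLB2 differed by a factor of 2.06 in percent of WT. CAK1, which activates Cdc28 by phosphorylation, was low with 20.5 units in mtr4-1, against 33.7 in WT (60.7%). CDC7, a kinase of DNA replication, was low at 68.2%, and DDC1, a DNA damage checkpoint gene, was barely high with 10.9 units in mtr4-1, against 9.36 in WT (116%).

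In the list of Cdc42 polarity and actin genes 9 of 15 were measured, with 2 high, 5 low and a median of 76.7%, near the 14.6% high and 57.7% low of all features. After division 4 were high and 3 low, with a median of 94.1%. CDC42 itself had 212 units in mtr4-1, against 306 in WT (69.2%), and CDC24, its exchange factor, had 15.5 units in mtr4-1, against 22.4 in WT (69.2%). CLA4, a kinase that Cdc42 activates, was low at 75.03%, and GIC2, the relative of GIC1, was inside at 94.98%. After division CLA4 lay inside the limits at 92.1%, CDC24 and CDC42 were barely low at 84.98% and 84.9%, and GIC1 was at 328%. The kelch protein genes KEL2 and KEL1 stood at 111% and 76.7%. BNI1 was low and ACT1 high, and MYO2, the myosin that moves along the cables that Bni1 builds, was low with 34.7 units in mtr4-1, against 51.7 in WT (67.1%). In the morphogenesis checkpoint and septin list only HSL1 and HSL7 had certain identities. HSL7, which works with Hsl1 against the kinase Swe1, had 31.5 units in mtr4-1, against 26.2 in WT (120.2%), and both were high. With the uncertain CBF2 (same values as KCC4), GIN4 at 69.6% and BNI5 at 64.3%, the list median was 120.2%. It was 94.9% when CBF2, under 5 units in WT, was left out.

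In the list of PP2A and PP1 subunits 5 of 9 genes were measured, none of them high and 3 low, counting the uncertain GLC7, near the 57.7% low of all features, with a median of 75.3% (92.4% after division, when 2 were low). The PP2A catalytic genes PPH22 and PPH21 lay just inside at 86.8% and 85.9%, and the regulatory genes CDC55 and RTS1 were low at 75.3% and 65.3%. Outside the list, GAC1, which encodes a targeting subunit of PP1, was high at 119% with 25.4 units in mtr4-1, against 21.4 in WT.

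The RSC list had 6 of 17 genes measured, 4 low and 0 high, with a median of 79.4%, beside 57.7% low and a median of 81.5% over all features. After division 2 were low, 2 inside and 2 high (RSC3 and RSC9), with a median of 97.5%. RSC6 and STH1, the ATPase gene, were the lowest at 47.8% and 61.95%, RSC4 and SFH1 were at 74.4% and 84.4%, and RSC9 and RSC3 were inside at 96.9% and 98.7%. The histone H3 genes HHT1 and HHT2, which encode the same protein, had 1108 units in mtr4-1, against 1506 in WT and 800.4 units in mtr4-1, against 1417 in WT (73.6% and 56.5%). The sources used here do not say how reads that match both copies were handled, so the split between them is uncertain. All 4 measured genes of the Urm1 and SUMO list were low, beside 57.7% of all features, with UBA4 at 50.8%, URM1 at 67.3%, the SUMO protease gene ULP1 at 68.2% and the SUMO-conjugating gene UBC9 at 80.6%. After division UBC9 was inside the limits at 98.9% and the other 3 were low. URM1 had 149 units in mtr4-1, against 221 in WT. Of SCF ubiquitin ligase genes, the cullin CDC53 was inside at 89.3%, and CDC4, a substrate receptor, was low with 28.9 units in mtr4-1, against 45.0 in WT (64.2%). SFI1, of the half-bridge of the spindle pole body, was low at 67.8%.

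Of the 24 features in no role list 4 were high, 15 low and 5 inside, with a median of 74.9%. This is near the 14.6% high and 57.7% low of all features, and the 4 include the uncertain YFR036W-A. After division 8 were high and 8 low, with a median of 91.9%. Features of this set not yet given were CMD1, the calmodulin gene, at 70.8%, IBD2 at 70.2% and the kinase gene RIO1 at 69.3%. SKM1, a relative of CLA4, was at 66.7%, the lipase gene TGL3 at 76.4% and TVP38 at 84.7%, and all these were low as deposited. YDR118W-A, which carries the name APC4 in the tables, stood at 60.4%, low, with an uncertain identity. RPN4, which turns on proteasome genes, was inside at 110.4%, as were AMN1, an inhibitor of mitotic exit in daughter cells, at 96.4% and YBP2 at 92.1%. A further 11 ORFs were listed without values: CDC34, CIN2, DBF4, HRT1, NIP100, PIN4, SPO12, STE20, SWE1, TEM1 and YHR127W.

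**Figure D3:**
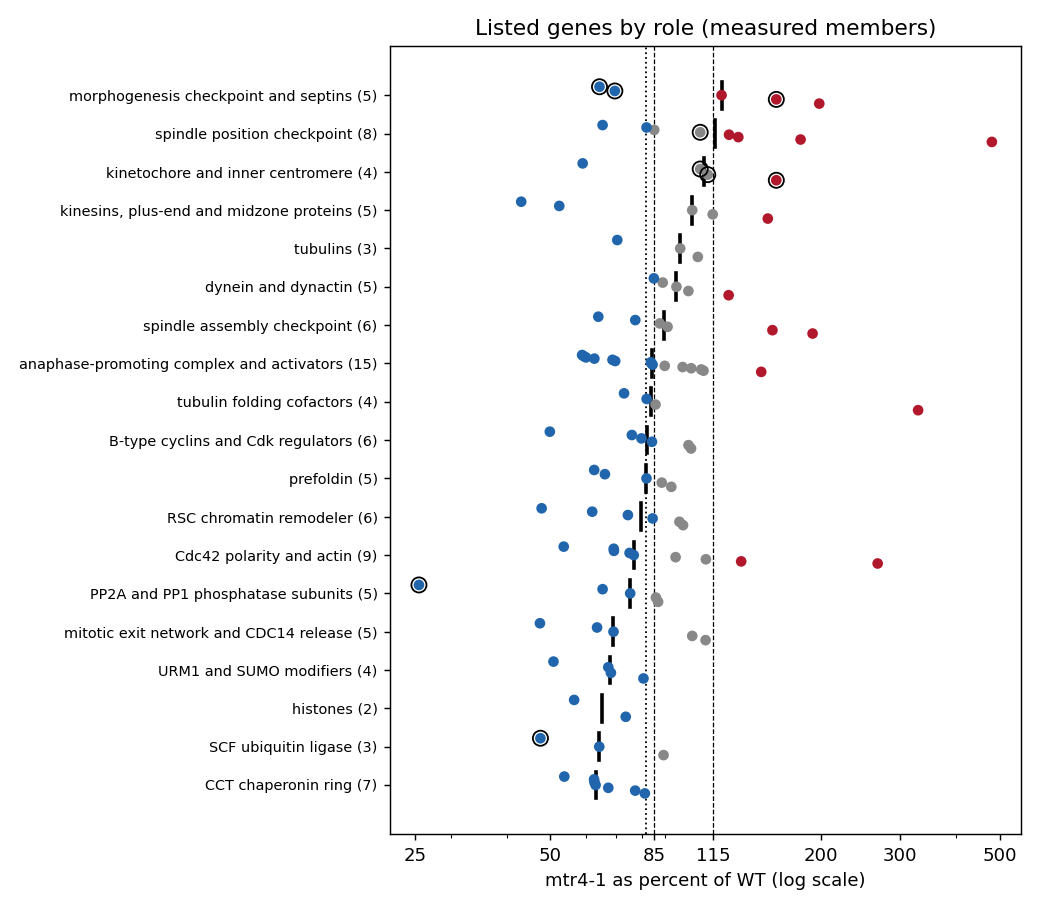
Percent of WT in mtr4-1 (log scale) for the measured members of each role list with at least 2 of them, blue for low, grey for inside and red for high, ringed where the identity is uncertain, with black bars at list medians. Dashed lines mark 85% and 115% and the dotted line the median of all 130 features, 81.5%; list medians run from 63.0% for the CCT ring to 120.2% for the morphogenesis checkpoint and septins.

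In the authors' own 16 terms, low entries outnumbered high ones in 13, where 57.7% of all features were low. After division by the median this held in 5 terms, high entries were the more numerous in 8, and 3 had as many of each. As deposited, the exceptions to the 13 were the spindle orientation checkpoint, with 4 high and 2 low of 6 entries, the establishment of spindle orientation, with 3 high and 3 low of 10, and the G1/S checkpoint, whose single entry is DDC1. In the cell budding term 7 of 8 entries were low, among them TGL4, CHS1, UBA4 and URM1, and none was high. In the G2/M transition term 15 of 25 entries with values were low and 3 high, and in mitotic spindle elongation 12 of 22 were low and 2 high. The terms share genes, since 39 of the 130 features sat in more than 1 term, so these counts are not independent. After division, cell budding had 5 low and 1 high entries, the G2/M term had 8 of each, and mitotic spindle elongation had 5 low and 8 high.

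**Figure D4:**
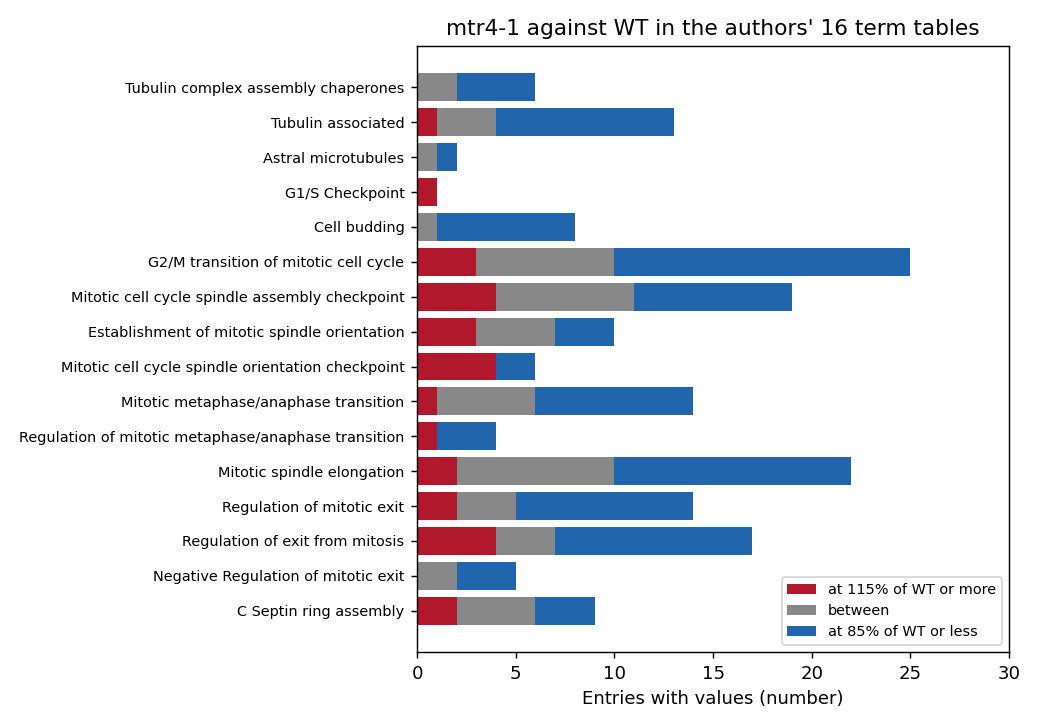
Number of entries with values in each of the authors' 16 term tables, split into high (red, 115% of WT or more), inside (grey) and low (blue, 85% or less) in mtr4-1. The spindle orientation checkpoint has 4 high of 6, while cell budding has 7 low of 8.

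In 13 pairs of related genes, put together after the values had been seen, the members differed by 1.5-fold or more in percent of WT in 5, a ratio that scaling leaves as it is. The members had the same call in 6 pairs as deposited and in 3 after division, GIC1 and GIC2, both high, among the 3. GIC1 and GIC2 differed by a factor of 2.82, with GIC2 at 37.7 units in mtr4-1, against 39.7 in WT. BUB1 and MAD3, which descend from the same ancestral gene, differed by 2.02 and lay on opposite sides of WT. TGL3 and TGL4 differed by 1.93, both low. HSL1 and GIN4 differed by 2.85, but the identity of GIN4 is uncertain. The nearest to each other were PPH22 and PPH21, with a factor of 1.01, followed by CLA4 and SKM1 with 1.13 and MOB2 and MOB1 with 1.23. The pair TUB1 and TUB3 differed by 1.38 and HHT1 and HHT2 by 1.30.

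Many calls lay close to the limits. Just past the upper limit were DDC1 at 116%, GAC1 at 119% and HSL7 at 120.2%, and just short of it ASE1 at 114.9%, the uncertain CEP3 at 112% and KEL2 at 111%. Just past the lower limit were LDB18 at 84.97%, TVP38 at 84.7% and SFH1 at 84.4%, and just short of it DMA1 at 85.1% and PPH21 at 85.9%. Division by the median moved 24 features from inside to high, TUB1, TUB2, CLB2, KIP3 and ESP1 among them. It moved 31 from low to inside, among them CDC20, CDC55, CLB3, HHT1 and TUB3, and left 12 inside under both scales.

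A small group was at least 1.5-fold lower in mtr4-1 than in every other library of the series. As deposited, mtr4-1 had the lowest of the 4 values for 64 of 130 features and the highest for 4. With each mutant library divided by its median ratio the numbers were 27 and 29. For 7 features the mtr4-1 value was at least 1.5-fold below each of the other 3, and for none was it 1.5-fold above all. After the division these counts were 3 below and 1 above, the last being BFA1. TGL4 had 17.8 units in mtr4-1, against 47.4 in mtr3-1, 49.6 in dis3mtr and 45.1 in WT, so that the other libraries lay close together and mtr4-1 stood 2.53-fold below the nearest. UBA4 had 35.2 units in mtr4-1, against 119.8 in mtr3-1, 78.1 in dis3mtr and 69.4 in WT. BNI1 had 8.31 units in mtr4-1, against 17.4 in mtr3-1, 28.9 in dis3mtr and 15.5 in WT. The 3 features below after the division were TGL4, UBA4 and BNI1, still at least 1.5-fold below every other library, by 2.02-fold, 1.60-fold and 1.52-fold. BUD14, MOB1, RSC6 and the uncertain YDR118W-A made up the 7 and were not past 1.5-fold after it, at 1.30-fold to 1.41-fold. These genes were picked for this pattern, and the differences carry no test.

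**Figure D5:**
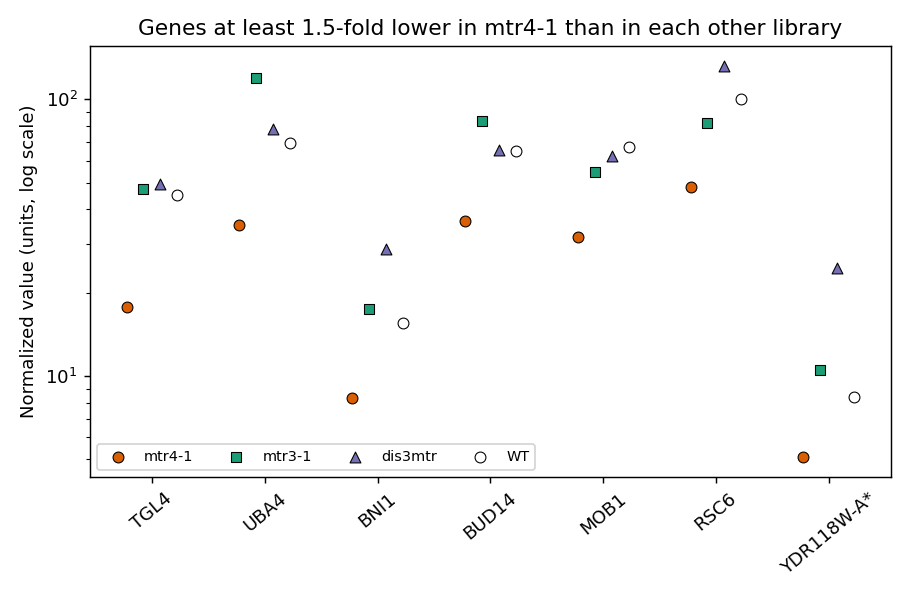
Normalized values (log scale) in mtr4-1, mtr3-1, dis3mtr and WT, 1 library each, for the 7 features at least 1.5-fold lower in mtr4-1 than in every other library. TGL4 shows the widest gap, 17.8 units in mtr4-1 against 45.1 to 49.6 in the others; the star marks an uncertain identity.

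The 3 highest certain genes and the CCT genes were also read in the other mutants. All 3 mutants were compared with the same WT library, so its value enters every ratio, and the values are given side by side only. BFA1 stood at 480.3% of WT in mtr4-1, 327% in mtr3-1 and 395% in dis3mtr. CIN1 stood at 329% in mtr4-1, 369% in mtr3-1 and 461% in dis3mtr. GIC1 stood at 268% in mtr4-1, 522% in mtr3-1 and 499% in dis3mtr. The CCT genes ranged from 53.7% to 81.1% in mtr4-1, from 64.6% to 108% in mtr3-1 and from 73.5% to 137% in dis3mtr. With each mutant divided by its own median ratio, they ranged from 65.9% to 99.6% in mtr4-1, from 65.1% to 108% in mtr3-1 and from 65.4% to 122% in dis3mtr.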

How the data were processed

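Poly(A) RNA of 1 library per genotype carried a barcode of 3 bases and was read for 36 cycles in a shared lane, per the labels' protocols. The submitters' processing notes name Bowtie and sacCer2. The sources used here give neither versions nor the normalization. The deposited values are a normalized score per gene and library, and the authors' deposited percents equal 100 times mutant over WT. The limits of 115% and 85% are those of the authors, per the file headers. Distinct value sets were counted once with pandas 2.3.3 and numpy 2.4.6 in Python 3.11.15, and plotted with matplotlib 3.10.9. Scripts were tested on simulated data. Gene names were mostly those the authors listed. R64, where 141 of 144 identifiers were found, served for a position check at a tolerance of 1 kb and for the order of genes. Depth is unknown, so no counting error is given.

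The members and the 21 role lists were chosen with earlier results of these data known, and the CCT group and the gene pairs after the values were seen. Genes named are the 15 highest and 15 lowest ratios, members of the lists, the 5 on each side of each limit, and those whose call changed on division by the median. Measured genes in no list were named besides, and 1 measured gene is not reported here by name. A planned description of promoter motifs was not made, because the genome at hand is not the authors' build. Alternatives were division by the median, a pseudocount of 1 unit, a WT minimum of 5 units, certain identities alone, each ORF counted once, and a 1.5-fold limit.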

Additional observations from a re-analysis of the deposited data

How the results depend on the processing

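Division by the median ratio gave 43 high and 44 low features, in place of 19 and 75, with a median of 100% by construction. Of the 20 role lists with a measured member, the CCT group left out, 6 in place of 13 had a median at or under the lower limit. Those lists include CHS1 and SFI1, each the 1 measured gene of its list. The division carried 4 list medians past WT: tubulin folding cofactors to 102.8%, prefoldin to 100.4%, the anaphase-promoting complex to 103% and cyclins and Cdk regulators to 100.6%. It did the same for 10 low genes, with LDB18, TVP38, SFH1 and APC11 at 104%, MIH1, CDC20 and APC1 at 103%, PAC2 at 100.5%, and SPC72 and GIM5 at 100.4%. The 1.5-fold limit gave 10 high and 34 low. A WT minimum of 5 units gave 14 high and 75 low with a median of 79.7%, and put the spindle position checkpoint at 96.4% and the morphogenesis checkpoint and septins at 94.9%. The pseudocount gave 18 high and 71 low with a median of 81.6%, certain identities 17 and 70 with 81.8%, and each ORF once 20 and 76 with 81.8%. No paired analysis was possible because each genotype has 1 library. For the same reason no library could be left out, and without depth the precision of small values such as that of BFA1 in WT is unknown.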

Other observations

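Among the certain features, 3 pairs are direct neighbours in the R64 annotation. TVP38 and TGL4 lie in tandem and stood at 84.7% and 39.5% of WT in mtr4-1. CLB2 and CLB5 are convergent and stood at 103% and 75.9%. CCT3 and MAD3, also convergent, stood at 62.5% and 77.3%, both low, as were 57.7% of all features. Their listed spans overlap, at 407 to 409 kb and 408 to 413 kb of chromosome 10, so their values may share reads.

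In the authors' deposited table the numbers of increased and decreased genes for mtr4-1 equal the recount in 13 of 16 terms. For the establishment of spindle orientation the authors' deposited table gives 3 increased and 4 decreased, where the entries give 3 and 3. There the authors' counts total 14, while 12 entries with an ORF identifier were read, 10 of them with values. The counts of that term therefore do not cover the same rows. For mitotic spindle elongation the authors' deposited table gives 3 and 12, where the entries give 2 and 12. For the negative regulation of mitotic exit the authors' deposited table gives 0 and 4, where the entries give 0 and 3.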
